A study of Mus musculus and Rattus norvegicus with 30 samples.

Results

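Genes of the cell division cycle were followed in the dorsal root ganglion (DRG), the cluster of sensory neuron cell bodies beside the spinal cord, after peripheral nerve injury. The 37 genes were chosen by symbol as markers of proliferation and as components of DNA replication, mitosis and cytokinesis. The rule uses no measured value, but the genes were listed with earlier results of these data known. All 37 were found among the 54315 features of the mouse count table and all were tested. In the rat table of 39281 features, 36 had a row and Ccnb2 had none, 25 held counts and were tested, and 11 were listed at 0 in every library (Cdk1, Mcm7, Mcm4, Cenpf, Mcm6, Aurkb, Mcm5, Cdc45, Birc5, Top2a and Hmmr). Actb and Tubb3, which DRG tissue uses widely, were also listed at 0 in rat, so a 0 there was not read as absence of the transcript.

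A dividing cell first licenses its replication origins with the MCM helicase, then copies its DNA with nucleotides made by ribonucleotide reductase and thymidylate synthase, and then enters mitosis under cyclin B and CDK1. The anaphase-promoting complex with CDC20 ends mitosis by marking cyclin B and securin for destruction, and PRC1, anillin and the centralspindlin proteins divide the cell. Sensory neurons are postmitotic, while satellite glia, Schwann cells, macrophages, endothelial cells and fibroblasts of the ganglion can divide. Total RNA of the tissue was measured, so fewer cells of a type and less RNA per cell cannot be told apart.

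The mice were of the inbred strains BALB/c and B10.D2, both sexes, with no engineered allele given in the labels, and had either spared nerve injury (SNI), in which the sciatic nerve loses its common peroneal and sural branches and keeps the tibial one, or sham surgery. Lumbar DRG were taken at day 28 and each library came from 1 animal, with 6 sham and 4 injured BALB/c libraries and 5 of each kind in B10.D2. The rats were male Wistar animals with spinal nerve transection (SNT), in which a lumbar spinal nerve is tied and cut, or sham surgery, taken at day 21, with 3 animals pooled in each of 4 sham and 4 SNT libraries. SNI leaves intact and cut axons in the same ganglia, and no library separated the cell types. The mouse libraries were ribodepleted and the rat libraries polyadenylated, and both kept the strand.

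Library totals ran from 29989963 to 41881331 counted reads in mouse and from 11954612 to 17887909 in rat. Levels are given as counts-per-million (CPM) of the library. At these depths 3 counts, the floor used here, equal 0.0716 to 0.10 CPM in mouse and 0.168 to 0.251 CPM in rat, for counting error only. Sensory neuron markers were present in every mouse library, with 10 of 10 counted and a summed level of 6805 to 8679 CPM, and in rat 6 of 10 were counted at 3848 to 9182 CPM with Rbfox3, Tubb3, Pou4f1 and Nefh listed at 0. A list of 10 axonal injury genes checked the surgery labels: all 10 rose in both mouse strains, as did all 6 that could be tested in rat.

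Several libraries stood apart from others of their group. BALB/c sham 50, BALB/c sham 55 and BALB/c SNI 49 had the highest summed level of Mpo, Elane, Prtn3 and Ctsg, the granule enzymes of myeloid precursors in bone marrow, at 15.9, 16.2 and 25.9 CPM, while no other mouse library exceeded 8.14 CPM. For the longer bone marrow list, with 13 of 15 genes counted, none of the 13 listed at 0 in every library, and Ahsp and Hbb-bs without a row, the BALB/c sums were 107 to 474 CPM in sham and 203 to 644 CPM in SNI, and the B10.D2 sums were 68.0 to 269.97 CPM in sham and 82.9 to 192 CPM in SNI. Skeletal muscle genes were at 1388 CPM in BALB/c sham 50 and 549 CPM in BALB/c SNI 49. In rat, sham 4 had 671 CPM of the axonal injury genes against 205 to 236 CPM in the other sham libraries and 839 to 1237 CPM in SNT, and it had 460 CPM of the macrophage genes against 113 to 195 CPM. The results that rest on these libraries are given with and without them.

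**Figure D1:**
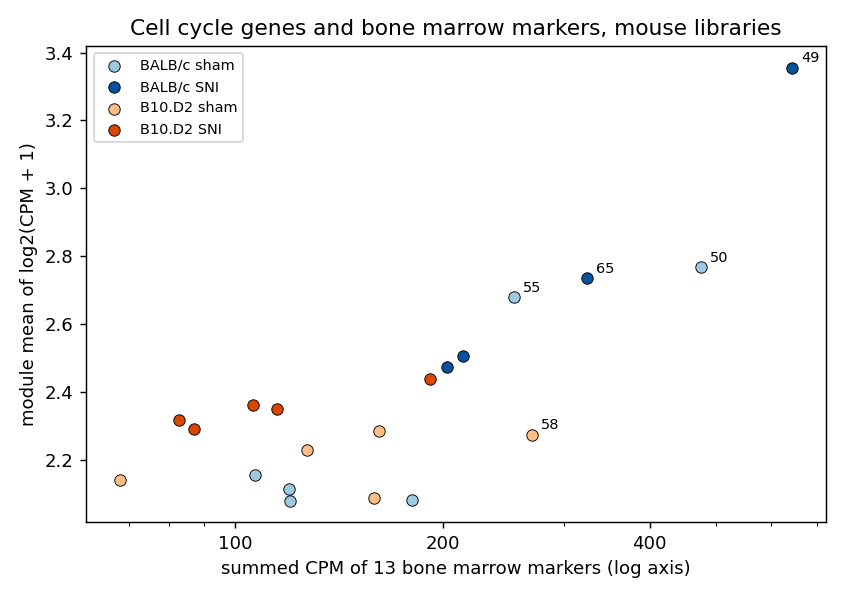
Each point is 1 of the 20 mouse libraries, with the summed CPM of 13 bone marrow markers on a log axis and, on the vertical axis, the mean over the 37 cell cycle genes of log2(CPM + 1). BALB/c SNI 49 and sham 50 lie furthest right, at means of 3.36 and 2.77. BALB/c SNI 65 lies next, at 325 CPM and a mean of 2.74, above and to the right of sham 55 at 254 CPM and 2.68. B10.D2 sham 58, at 270 CPM, also lies right of sham 55 but lower, at a mean of 2.27.

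In sham ganglia the cell cycle genes were measured at low levels. The median gene of the list was at 3.61 CPM over the mouse sham libraries, against 6.90 CPM for the median feature tested. The lowest was Aurkb, the mitotic kinase Aurora B, at 0.574 CPM, and the highest was Pcna, the sliding clamp that holds DNA polymerase on its template, at 31.5 CPM. Of the 37, 7 exceeded 10 CPM and 10 were under 2 CPM. Per kilobase of annotated exon, the order of levels in mouse sham ganglia began with Pcna at 13.1 CPM per kb and Mcm4 at 4.68, followed by the G1/S cyclin gene Ccne1 at 2.55 and Mcm7 at 2.45, and ended with Aurkb at 0.195 and Cenpf at 0.175. The replication genes Pcna, Mcm4 and Mcm7 thus stood near the top of the list and the mitotic genes Aurkb and Cenpf at its foot. Between these ends the roles were mixed. The nucleotide supply genes Tyms at 0.63 and Rrm2 at 0.80 stood below the mitotic kinase gene Aurka at 1.59 and the cytokinesis gene Anln at 1.34. In rat the 25 counted genes had a median of 11.7 CPM in sham against 18.0 CPM for all features tested.

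The genes lay on 15 mouse chromosomes. On build GRCm38, 6 of them were overlapped by another annotated gene on their own strand and 14 by a gene on the opposite strand. Mcm7 (chr5:138164583-138172422) holds 3 miRNA genes on its own strand, and Prc1 (chr7:80294450-80316259) is overlapped by Rccd1 and a long noncoding RNA gene on the opposite strand. Mcm6 (chr1:128331590-128359664), Bub1b (chr2:118598211-118641591), Hmmr (chr11:40701395-40733422) and Tyms (chr5:30058202-30073617) had no overlapping gene. Read sharing was not tested for the overlapped genes.

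Promoters of cell cycle genes are known for a small set of sequence elements: the CHR, bound by the MuvB complex and typical of genes of G2 and mitosis, the CCAAT box bound by NF-Y, and the E2F site typical of genes of DNA replication. The windows searched ran from 250 bases before to 50 bases after the transcription start, were taken from RefSeq on GRCm38.p6, and were held for 32 of the 37 genes and for 27025 genes in all. Some genes had several windows, and a match in any of them counted for the gene. A CHR, searched as TTTGAA or TTTAAA on both strands, was found for 24 of the 32 genes (75.0%), against 30.6% of all genes. The letters CCAAT on either strand were found for 27 (84.4%), against 41.1% of all. A CHR and a CCAAT box stood in the same window for 21 (65.6%), against 12.2%. An E2F site, searched as TTTGGCGC, TTTCGCGC, TTTCCCGC or TTTGCCGC on both strands, was found for 5 genes (15.6%), against 2.61% of all. These were Mcm3, Mcm5, Mcm6, Mcm7 and Cdk1. A match is a description of the letters and does not show that a factor binds.

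The stretches from 170 bases before to 30 bases after the start are printed for 8 genes that passed the test after SNI in BALB/c mice, to show where these elements lie around their starts. Capitals mark a CHR, a CCAAT box (CCAAT or, on the other strand, ATTGG) or an E2F site in each. The first 5 are mitotic or cytokinetic genes.
Prc1 (chr7:80294281-80294480, plus strand): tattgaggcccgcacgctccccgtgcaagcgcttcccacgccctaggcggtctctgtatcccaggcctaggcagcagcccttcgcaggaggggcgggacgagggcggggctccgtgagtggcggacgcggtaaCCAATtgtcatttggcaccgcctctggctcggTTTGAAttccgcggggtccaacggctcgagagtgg
Ccnb1 (chr13:100786457-100786656, minus strand): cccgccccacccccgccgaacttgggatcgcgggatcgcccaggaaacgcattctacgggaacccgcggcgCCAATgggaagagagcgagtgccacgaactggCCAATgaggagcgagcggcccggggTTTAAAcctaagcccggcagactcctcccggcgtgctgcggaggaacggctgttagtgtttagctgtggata
Cdc20 (chr4:118437314-118437513, minus strand): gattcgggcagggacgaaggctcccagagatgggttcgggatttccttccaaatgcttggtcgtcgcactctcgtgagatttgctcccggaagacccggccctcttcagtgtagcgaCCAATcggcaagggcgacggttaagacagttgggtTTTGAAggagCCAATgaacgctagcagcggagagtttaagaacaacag
Cenpf (chr1:189688057-189688256, minus strand): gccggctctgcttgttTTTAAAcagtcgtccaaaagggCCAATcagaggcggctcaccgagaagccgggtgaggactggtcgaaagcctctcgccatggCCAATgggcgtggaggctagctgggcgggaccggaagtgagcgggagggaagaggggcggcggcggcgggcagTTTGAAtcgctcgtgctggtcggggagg
Anln (chr9:22389177-22389376, minus strand): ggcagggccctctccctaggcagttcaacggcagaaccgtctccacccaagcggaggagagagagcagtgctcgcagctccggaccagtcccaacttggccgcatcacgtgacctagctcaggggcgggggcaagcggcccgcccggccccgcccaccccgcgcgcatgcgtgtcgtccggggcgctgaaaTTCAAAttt
The other three encode subunits of the replicative helicase.
Mcm3 (chr1:20820283-20820482, minus strand): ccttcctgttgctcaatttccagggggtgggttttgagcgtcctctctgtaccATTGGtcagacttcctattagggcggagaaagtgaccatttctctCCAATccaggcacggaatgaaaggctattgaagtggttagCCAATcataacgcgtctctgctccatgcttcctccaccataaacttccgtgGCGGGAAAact
Mcm6 (chr1:128359676-128359875, minus strand): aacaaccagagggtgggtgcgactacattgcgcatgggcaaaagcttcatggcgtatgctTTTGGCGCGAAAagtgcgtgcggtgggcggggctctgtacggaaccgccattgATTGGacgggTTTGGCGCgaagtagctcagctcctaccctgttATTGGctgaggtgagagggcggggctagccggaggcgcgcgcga
Mcm7 (chr5:138171854-138172053, minus strand): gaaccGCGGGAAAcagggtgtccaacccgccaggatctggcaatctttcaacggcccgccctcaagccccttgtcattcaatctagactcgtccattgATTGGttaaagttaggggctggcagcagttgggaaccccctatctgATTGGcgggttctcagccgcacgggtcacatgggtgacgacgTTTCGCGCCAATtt

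In the promoters of Prc1, Ccnb1, Cdc20 and Cenpf a CCAAT box lay upstream of a CHR, and the CHR began 5 bases before the start in Prc1, 42 before in Ccnb1, 18 before in Cdc20 and, for the downstream CHR of Cenpf, 2 after it. Anln held a CHR on the other strand and no CCAAT box in these letters. The windows of Mcm3, Mcm6 and Mcm7 held CCAAT boxes and E2F sites and no CHR. Other replication genes differed from them, since the windows of Mcm2, Mcm5, Cdc45 and Rrm2 held a CHR, and the window of the mitotic kinase gene Cdk1 held an E2F site beside a CHR. The upstream E2F site of Mcm6 reads on both strands, and the last E2F site of Mcm7 overlaps a CCAAT box. Tyms, the ninth gene that passed in BALB/c mice, held none of the 3 elements in its window.

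After SNI in BALB/c mice 9 of the 37 cell cycle genes rose, led by the spindle midzone protein gene Prc1, with the mitotic genes Ccnb1, Cenpf and Cdc20 and the helicase genes Mcm6, Mcm3 and Mcm7 among those that rose. The question was which of these genes differed between injured and sham ganglia, by edgeR's quasi-likelihood test on counts with Benjamini-Hochberg adjustment over all features tested and sex in the model. A gene is called here when its adjusted p is under 0.05, and log2 fold changes are given with their standard error (SE). All 9 called genes were higher. Among all 24685 features tested, 9.69% were called, and 4.82% were called higher. The estimate was above 0 for 35 of the 37 genes, and the median log2 fold change was 0.59, against 0.0033 for all features. An unadjusted p under 0.05 was found for 23 of the 37, against 23.2% of all features.

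Prc1, which bundles the antiparallel microtubules of the central spindle, lay at 3.74 CPM (lowest), 4.33 (median) and 7.99 (highest) in the 6 BALB/c sham libraries and at 20.2, 15.2, 12.9 and 12.9 CPM in SNI libraries 49, 64, 65 and 70. Every SNI library lay above every sham library, and the log2 fold change was 1.59 ± 0.20 (SE, adjusted p = 1.94e-05, edgeR). Cenpf, a large kinetochore protein of mitosis, lay at 1.58, 2.47 and 7.06 CPM in sham (lowest, median and highest) and at 12.4, 5.59, 7.36 and 4.88 CPM in SNI. The groups overlapped for Cenpf, and its log2 fold change was 1.13 ± 0.33 (SE, adjusted p = 0.0351, edgeR).

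Ccnb1, the cyclin B1 that brings CDK1 into mitosis, lay at 0.507, 0.779 and 1.91 CPM in sham and at 5.16, 1.30, 2.41 and 1.45 CPM in SNI, with a log2 fold change of 1.32 ± 0.39 (SE, adjusted p = 0.0339, edgeR). Cdc20, the activator of the anaphase-promoting complex, lay at 1.23, 1.54 and 2.53 CPM in sham and at 5.19, 1.98, 2.51 and 2.98 CPM in SNI, with a log2 fold change of 0.82 ± 0.23 (SE, adjusted p = 0.0260, edgeR). For both genes the groups overlapped and SNI library 49 was the highest of all 10 BALB/c libraries. Anln, the actin-binding scaffold of the contractile ring, lay at 11.5, 12.5 and 14.1 CPM in sham and at 19.0, 16.0, 16.3 and 16.4 CPM in SNI. Its groups did not overlap and its log2 fold change was 0.43 ± 0.08 (SE, adjusted p = 0.00211, edgeR).

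In the replicative helicase, which unwinds DNA ahead of the fork, 3 of 7 genes were called. Mcm6 lay at 2.36, 3.22 and 6.18 CPM in BALB/c sham and at 12.4, 5.34, 6.22 and 6.01 CPM in SNI (log2 fold change 0.92 ± 0.23, adjusted p = 0.0133, edgeR). Mcm3 lay at 3.14, 3.68 and 5.50 CPM in sham and at 9.05, 5.24, 5.86 and 6.01 CPM in SNI (0.67 ± 0.17, adjusted p = 0.0139), and Mcm7 at 9.22, 10.7 and 13.5 CPM in sham and at 20.04, 12.9, 14.3 and 14.5 CPM in SNI (0.45 ± 0.11, adjusted p = 0.00831). The lower SNI libraries overlapped the higher sham libraries for all 3 genes. Tyms, thymidylate synthase, was at 3.86 ± 0.51 CPM in sham (SD, n = 6) and 5.18 ± 1.26 CPM in SNI (SD, n = 4), and its log2 fold change was 0.42 ± 0.13 (adjusted p = 0.0388).

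By role, the called genes were 3 of 7 helicase genes, 2 of 6 kinetochore and spindle genes, and 1 each of 8 mitotic cyclins and kinases, 4 genes of nucleotide supply and the clamp, 2 of the anaphase-promoting complex and 3 of cytokinesis. None of the 2 pan-proliferation markers, 3 G1/S and S phase cyclins and 2 chromosomal passenger genes was called. Among the genes not called, the largest estimates were those of the DNA topoisomerase gene Top2a at 1.2 (adjusted p = 0.0635), of Mki67, the gene of the Ki-67 antigen, at 0.96 (adjusted p = 0.184), of the spindle gene Nusap1 at 0.96 (adjusted p = 0.0837) and of the ubiquitin-conjugating enzyme gene Ube2c at 0.94 (adjusted p = 0.245). Prc1 and Anln were the 2 genes with every injured library above every sham library, a pattern that 4.30% of all features showed.

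**Figure D2:**
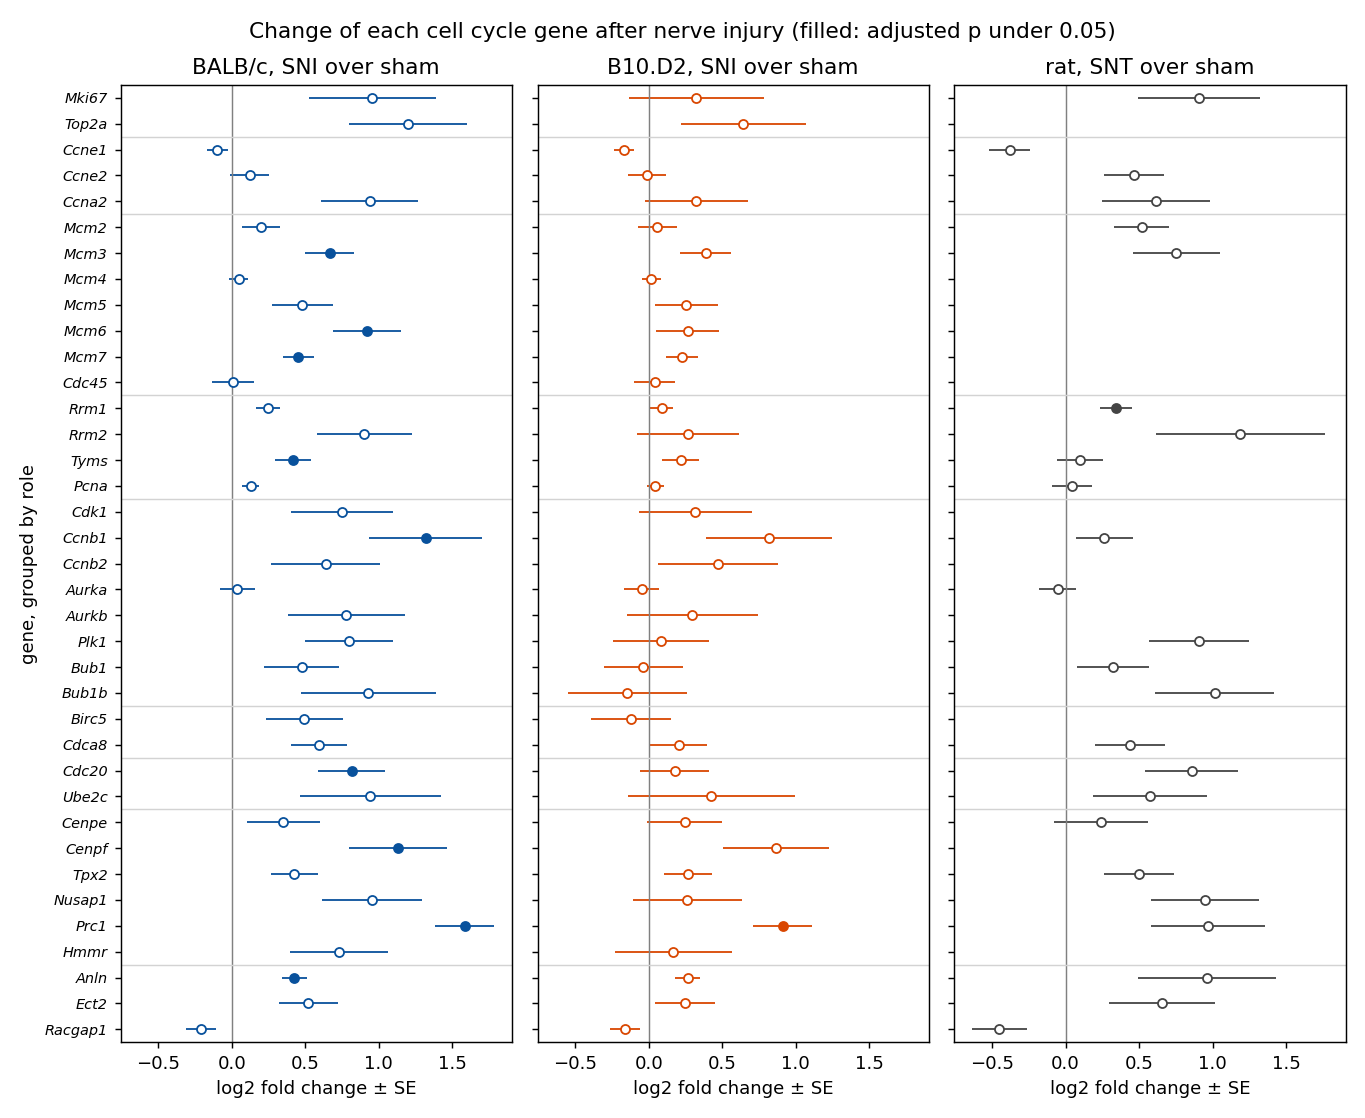
Log2 fold change of each cell cycle gene with its SE after injury in BALB/c mice, B10.D2 mice and rats, with genes grouped by role and filled points for an adjusted p under 0.05. Filled points number 9 in BALB/c, 1 in B10.D2 and 1 in rat, and most open points lie right of 0.

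The BALB/c result moved with its libraries. SNI library 49 was the highest of the 4 SNI libraries for all 37 genes and the highest of all 20 mouse libraries for 32 of them, and sham libraries 50 and 55 were the highest sham libraries for 22 and 14 genes. These are the 3 libraries with the highest myeloid precursor genes. Without all 3, a setting added after the data were seen, 21 of 37 genes were called, all higher, against 10.1% of all features, and the median log2 fold change was 0.59. Leaving out the libraries highest for these genes narrows the spread within both groups by itself. The added calls thus follow in part from the choice of libraries and are no separate support for a rise. In the BALB/c libraries kept, the sums of the longer bone marrow list were 107 to 180 CPM in sham and 203 to 325 CPM in SNI, without overlap. By that list this fit did not even out the marrow level between the groups. The sums of the 4 myeloid precursor genes overlapped, at 0.977 to 4.32 CPM in sham and 3.23 to 8.14 CPM in SNI. Among the 21, Prc1 was at 1.74, Top2a at 1.65, Bub1b at 1.62, Ube2c at 1.59, Cenpf at 1.39, Mki67 at 1.25 and Mcm6 at 1.04 on the log2 scale. With each library's summed bone marrow level as a covariate instead, 4 were called, against 6.40% of all features: Prc1 at 1.32, Mcm6 at 0.62, Anln at 0.37 and Mcm7 at 0.35. Leaving out SNI 49 alone left 2 called genes, against 7.53% of all features, while leaving out sham 50 alone gave 16, against 10.7%. Macrophage genes, with 9 of 9 counted and none at 0, summed to 75.1 to 188 CPM in BALB/c sham and 138 to 221 CPM in SNI, and 3 of 9 rose. Of the other cell type lists 2 of 8 satellite glia, 1 of 7 endothelial and 1 of 6 fibroblast genes rose in BALB/c mice, and none of 8 Schwann cell and 9 T and B cell genes was called. The part of marrow, muscle or macrophage RNA in these differences was not tested beyond these fits.

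After SNI in B10.D2 mice, Prc1 was the single gene of the 37 that was called. It lay at 6.20, 3.59, 4.10, 5.99 and 5.24 CPM in sham libraries 58, 60, 67, 77 and 88 and at 10.6, 7.17, 9.67, 9.02 and 10.4 CPM in SNI libraries 69, 76, 78, 89 and 90. Every SNI library lay above every sham library, with a log2 fold change of 0.91 ± 0.20 (SE, adjusted p = 0.0107, edgeR). Of all features, 4.58% were called. The estimate was above 0 for 30 of 37 genes, and the median was 0.24, against 0.0076 for all features. An unadjusted p under 0.05 was found for 6 of the 37, a share no higher than the 16.8% of all features.

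Beside Prc1, the helicase genes Mcm5, Mcm6 and Mcm7, Tyms and the cyclin B2 gene Ccnb2 had every SNI library above every sham library, so 6 of 37 showed this pattern against 2.41% of all features. Ccne1, cyclin E1, had every SNI library below every sham library, at 6.05 ± 0.33 CPM in SNI and 6.90 ± 0.27 CPM in sham (SD, n = 5 each), a pattern in 2.77% of all features, and was not called. The largest estimates that were not called were Cenpf at 0.87 (adjusted p = 0.210), Ccnb1 at 0.82 (adjusted p = 0.354), Top2a at 0.64 (adjusted p = 0.491) and Ccnb2 at 0.47 (adjusted p = 0.633). The macrophage list summed to 153 to 183 CPM in B10.D2 sham and 168 to 275 CPM in SNI, and none of its 9 genes was called, while 1 of 8 satellite glia and 1 of 6 fibroblast genes rose. With the bone marrow covariate 5 genes were called in B10.D2 mice, against 5.46% of all features: Ccnb1 at 1.10, Cenpf at 1.10, Prc1 at 1.04, Top2a at 0.83 and Anln at 0.29.

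The mean over the 37 genes of log2(CPM + 1) summarised each library and is given as a description. It was 2.31 ± 0.32 in BALB/c sham (SD, n = 6) and 2.77 ± 0.41 in BALB/c SNI (SD, n = 4), and the groups overlapped, with sham 50 at 2.77, sham 55 at 2.68 and SNI 49 at 3.36. It was 2.20 ± 0.09 in B10.D2 sham and 2.35 ± 0.06 in B10.D2 SNI (SD, n = 5 each), and these groups did not overlap. The difference between SNI and sham was 0.45 in BALB/c and 0.15 in B10.D2. Without the 3 libraries the BALB/c difference was 0.46.

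**Figure D3:**
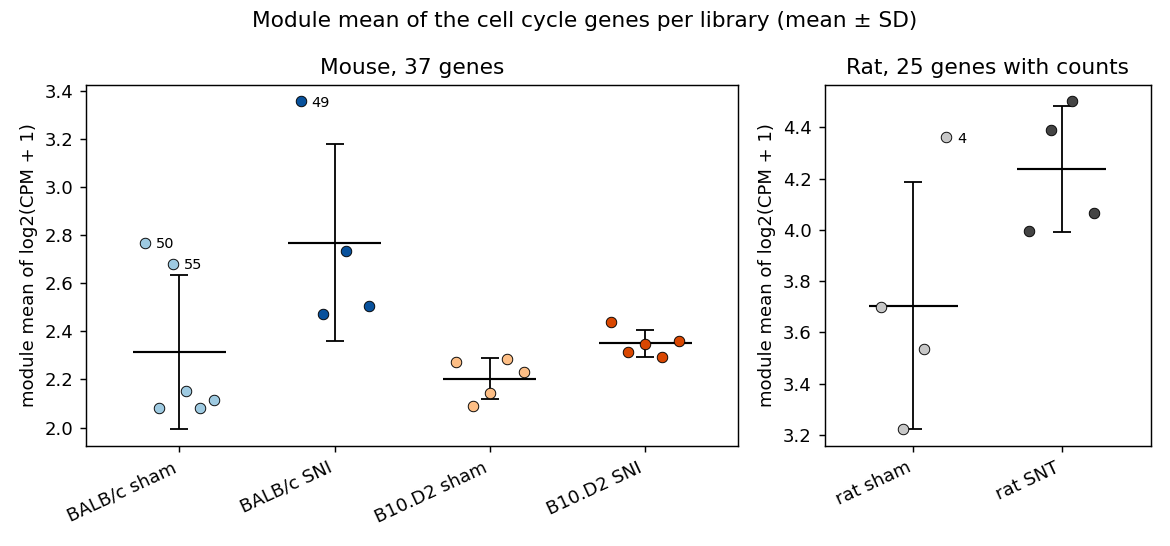
Mean over the cell cycle genes of log2(CPM + 1) in each library (points), with group mean and SD, for 37 genes in mouse and 25 genes in rat. BALB/c sham 50 and 55, BALB/c SNI 49 and rat sham 4 stand above the other libraries of their groups.

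Whether the change after SNI differed between the strains was tested by the interaction term. No cell cycle gene was called by edgeR, and DESeq2 called none either. In edgeR 1 of the 37 had an unadjusted p under 0.05, against 4.35% of all features. Of all features, 0.0243% were called. The estimate was below 0, a lower log2 fold change in B10.D2 than in BALB/c, for 35 of 37 genes, with a median of −0.28. The largest estimates were those of Bub1b, a spindle checkpoint kinase, at −1.08, of the mitotic kinase gene Plk1 at −0.72, of Nusap1 at −0.69 and of Prc1 at −0.67 (unadjusted p = 0.0284, adjusted p = 1, edgeR). Without the 3 libraries 1 gene was called, Mcm6, with an estimate of −0.80 (adjusted p = 0.0330, edgeR), against 0.0241% of all features. That fit, added after the data were seen, left out BALB/c libraries alone. They were the highest of their groups for Mcm6, with sham 50 and 55 at 5.63 and 6.18 CPM and SNI 49 at 12.4 CPM. The choice of libraries thus narrows the BALB/c spread of Mcm6, and the call is no separate support for a strain difference.

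In sham ganglia 4 of 37 genes differed between the strains, Mcm6 and Bub1b being higher and Hmmr and Mcm2 lower in B10.D2. Of all features, 21.6% were called in this comparison. Mcm6 lay at 12.4, 13.1, 11.1, 13.5 and 13.5 CPM in B10.D2 sham, against 2.36 to 6.18 CPM in BALB/c sham (log2 difference 1.69 ± 0.22, adjusted p = 3.81e-06, edgeR). The groups did not overlap for Mcm6, whose lowest B10.D2 sham library was above its highest BALB/c sham library.

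Bub1b lay at 5.47, 4.16, 2.85, 7.85 and 6.54 CPM in B10.D2 sham and at 0.576, 0.804 and 3.22 CPM in BALB/c sham (lowest, median and highest), with a log2 difference of 1.93 ± 0.42 (adjusted p = 0.00177, edgeR). Its lowest B10.D2 library lay within the BALB/c range. Hmmr, a microtubule-binding protein of the spindle that also binds hyaluronan, lay at 0.906, 0.543, 0.516, 0.931 and 0.990 CPM in B10.D2 sham and at 1.12, 1.35 and 3.25 CPM in BALB/c sham, with a log2 difference of −1.28 ± 0.36 (adjusted p = 0.0123, edgeR). The Hmmr groups did not overlap. Mcm2, a helicase subunit, lay at 6.29, 6.39, 6.71, 5.88 and 6.23 CPM in B10.D2 sham and at 6.28, 7.91 and 10.01 CPM in BALB/c sham, with overlap and a log2 difference of −0.39 ± 0.13 (adjusted p = 0.0303, edgeR).

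The estimate was lower in B10.D2 sham for 32 of the 37 genes, with a median of −0.27 against −0.0063 for all features. The largest differences that were not called were Mki67 at −1.08 (adjusted p = 0.0843), Ube2c at −0.92, Cenpf at −0.92 and Ccnb2 at −0.85. Without the 3 BALB/c libraries 3 genes were called, Mcm6, Bub1b and Hmmr, against 19.8% of all features, and 17 of 37 estimates were lower. The mean over the 37 genes differed by −0.11 between B10.D2 and BALB/c sham, and by 0.096 without sham libraries 50 and 55, so its direction depended on those libraries.

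After SNI, 17 of 37 genes differed between the strains, 16 lower in B10.D2 and Mcm6 higher. Of all features, 20.8% were called and 9.98% were called lower. Mki67 lay at 71, 18.1, 32.8 and 17.2 CPM in BALB/c SNI and at 11.1, 10.2, 13.1, 7.60 and 9.97 CPM in B10.D2 SNI (log2 difference −1.72 ± 0.47, adjusted p = 0.0111, edgeR). Top2a lay at 35.3, 11.1, 19.7 and 13 CPM in BALB/c SNI and at 10.8, 7.22, 8.78, 5.14 and 7.25 CPM in B10.D2 SNI (−1.33 ± 0.43, adjusted p = 0.0294). For both markers the highest B10.D2 library lay below the lowest BALB/c library.

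Hmmr lay at 6.0, 2.03, 2.85 and 1.76 CPM in BALB/c SNI and at 1.09, 0.970, 0.655, 0.589 and 0.952 CPM in B10.D2 SNI, the largest of the 37 differences at −1.84 ± 0.37 on the log2 scale (SE, adjusted p = 0.000977, edgeR). Nusap1, which bundles spindle microtubules, lay at 9.11, 2.91, 4.41 and 2.58 CPM in BALB/c SNI and at 1.98, 1.71, 2.16, 1.39 and 1.79 CPM in B10.D2 SNI (−1.36 ± 0.37, adjusted p = 0.0100). Neither gene's groups overlapped. Cenpf lay at 12.4, 5.59, 7.36 and 4.88 CPM in BALB/c SNI and at 4.16, 2.78, 3.37, 3.08 and 3.22 CPM in B10.D2 SNI (−1.18 ± 0.35, adjusted p = 0.0194).

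Rrm2, the small subunit of ribonucleotide reductase, lay at 9.92, 2.91, 3.94 and 3.09 CPM in BALB/c SNI and at 2.23, 2.12, 2.47, 1.74 and 1.65 CPM in B10.D2 SNI (−1.26 ± 0.35, adjusted p = 0.0120). Ccna2, cyclin A2 of S phase, lay at 14.0, 4.09, 5.83 and 3.71 CPM in BALB/c SNI and at 3.24, 3.27, 3.10, 2.44 and 2.88 CPM in B10.D2 SNI (−1.19 ± 0.35, adjusted p = 0.0184). For both genes SNI 49 and then SNI 65 were the highest BALB/c libraries, and the strains did not overlap. Plk1, a kinase of mitotic entry and exit, lay at 3.24, 0.903, 1.58 and 1.22 CPM in BALB/c SNI and at 0.810, 0.536, 0.703, 0.642 and 1.04 CPM in B10.D2 SNI (−1.18 ± 0.32, adjusted p = 0.0105), and its groups overlapped.

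The other called genes that were lower in B10.D2 SNI were the mitotic kinase gene Cdk1 at −1.17, the chromosomal passenger gene Birc5 at −0.89, the checkpoint kinase gene Bub1 at −0.87, Prc1 at −0.70, Mcm3 at −0.61, Mcm2 at −0.53, Mcm7 at −0.35 and Anln at −0.28. Mcm6 was higher in B10.D2 SNI at 15.9, 14.0, 14.2, 14.7 and 15.7 CPM, against 12.4, 5.34, 6.22 and 6.01 CPM in BALB/c SNI (log2 difference 1.03 ± 0.24, adjusted p = 0.00270, edgeR). Not called were Ube2c at −1.44 (adjusted p = 0.0556), Ccnb1 at −1.14 (adjusted p = 0.0503), Ccnb2 at −1.02 and Aurkb at −1.0. In 16 genes every B10.D2 SNI library lay below every BALB/c SNI library, against 8.86% of all features.

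This comparison also moved with the marrow genes. Without the 3 libraries 15 genes were called, 13 lower and Mcm6 and Bub1b higher, against 17.9% of all features. With the bone marrow covariate 2 were called, Mcm6 at 1.64 and Bub1b at 2.05, both higher in B10.D2, against 13.4% of all features, and none was called lower. Among injured libraries the bone marrow sums were 203 to 644 CPM in BALB/c and 82.9 to 192 CPM in B10.D2, without overlap. Strain and marrow level therefore cannot be told apart for the genes that were lower. Bub1b lay at 5.67, 2.55, 2.52, 7.22 and 5.96 CPM in B10.D2 SNI and at 4.48, 1.65, 3.11 and 1.45 CPM in BALB/c SNI. Leaving out SNI 49 alone left 3 called genes, against 16.8% of all features. The mean over the 37 genes differed by −0.42 between the injured strains without overlap, and by −0.22 without SNI 49.

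**Figure D4:**
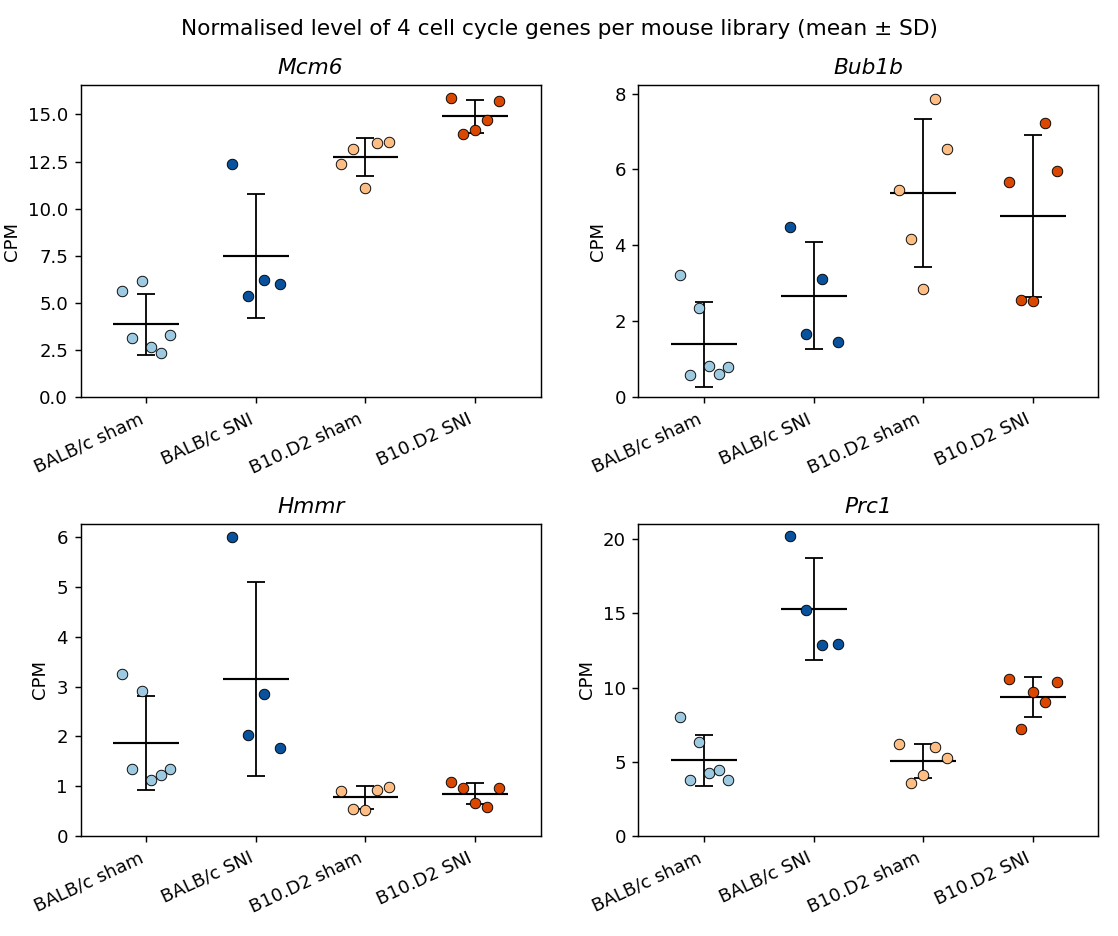
CPM of Mcm6, Bub1b, Hmmr and Prc1 in each mouse library (points), with group mean and SD. Mcm6 is at 11.1 CPM or more in every B10.D2 library, Hmmr at 1.09 CPM or less, and Prc1 is higher after SNI than in sham in both strains.

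No cell cycle gene differed between male and female mice, by edgeR or by DESeq2. In edgeR 1 of the 37 had an unadjusted p under 0.05, against 11.7% of all features. Of all features, 0.243% were called. The estimate was higher in males for 35 of the 37 genes with a median of 0.083, against 0.0016 for all features, and for 14 of 37 without the 3 libraries.

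After SNT in rats 1 of 25 genes was called, Rrm1, the large subunit of ribonucleotide reductase. It lay at 73.3, 57, 55.6 and 68.3 CPM in sham libraries 1 to 4 and at 78.1, 79.1, 86.2 and 78.7 CPM in SNT libraries 1 to 4. Every SNT library lay above every sham library and the log2 fold change was 0.34 ± 0.11 (SE, adjusted p = 0.0437, edgeR). Of the 13690 features tested, 27.4% were called, so the share of cell cycle genes called, 1 of 25, was below that of all features. The estimate was above 0 for 22 of 25 genes, and the median was 0.52, against 0.0027 for all features. An unadjusted p under 0.05 was found for 11 of the 25, a share close to the 42.5% of all features. Rrm1 was also the 1 gene with every SNT library above every sham library, a pattern in 12.2% of all features, and Ccne1 had every SNT library below every sham library at a log2 fold change of −0.38 that was not called, a pattern in 14.3% of all features.

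The rat values were spread by sham 4, which was the highest sham library for 20 of 25 genes. Prc1 lay at 17.1, 9.64, 12.4 and 39.0 CPM in sham and at 28.8, 40.1, 50.6 and 33.7 CPM in SNT (log2 fold change 0.97, adjusted p = 0.0870). Rrm2 lay at 8.29, 2.38, 6.70 and 25.6 CPM in sham and at 15.3, 34.2, 30.6 and 17.9 CPM in SNT (1.19, adjusted p = 0.143). In both genes sham 4 lay among the SNT libraries and the other sham libraries lay below them. Bub1b at 1.01 (adjusted p = 0.0872) and Anln at 0.96 (adjusted p = 0.143) were the next largest estimates that were not called.

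Without rat sham 4, 17 of 25 genes were called, all higher, against 34.6% of all features, with a median of 0.82. Rrm2 was then at 2.11, Anln at 1.67, Bub1b at 1.62, Prc1 at 1.57 and Mki67 at 1.5 on the log2 scale. Without both sham 4 and SNT 1, the lowest SNT library for 18 of 25 genes, 20 were called, 19 higher and Racgap1, a centralspindlin component, lower, against 43.9% of all features. Leaving out the sham library highest for most genes and the SNT library lowest for most widens their difference by itself. More higher calls thus follow from the choice of libraries and are no separate support for a rise. The same holds in part for the fit without sham 4 alone. DESeq2 on all 8 libraries called 8 genes, all higher, against 26.1% of the features to which it gave an adjusted p: Mcm2, Mcm3, Rrm1, Plk1, Bub1b, Cdc20, Nusap1 and Prc1. The mean over the 25 genes of log2(CPM + 1) was 3.70, 3.22, 3.54 and 4.36 in sham 1 to 4 and 3.99, 4.39, 4.50 and 4.06 in SNT 1 to 4, a difference of 0.53 with overlap.

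Genes of other cell types also differed between the rat groups. Of the macrophage list, 5 of 9 genes were counted, with Csf1r, Aif1, Cd68 and Mrc1 listed at 0, and their sum was 113 to 460 CPM in sham and 387 to 574 CPM in SNT, with 1 of the 5 called higher. Of the T and B cell list 8 of 9 were counted, with Cd79b listed at 0, and the sum was 35.0 to 87.3 CPM in sham and 104 to 155 CPM in SNT, with 2 of the 5 tested genes called higher. Of the bone marrow list 9 of 15 were counted, with Mpo, Ctsg, Gata1, Klf1 and Hba-a1 listed at 0, and the sum was 18.4 to 55 CPM in sham and 6.11 to 33.5 CPM in SNT. Fibroblast genes (3 of 6 counted, with Col1a1, Pdgfra and Dpt listed at 0) summed to 882 to 2007 CPM in sham and 1857 to 2708 CPM in SNT. Endothelial genes (3 of 7 counted, with Cdh5, Cldn5 and Kdr listed at 0 and Pecam1 without a row) summed to 83.3 to 134 CPM in sham and 121 to 157 CPM in SNT, and 1 of the 3 counted genes was called higher in each of these 2 lists. Satellite glia genes (3 of 8 counted, with Fabp7, Kcnj10, Glul, Cdh19 and Gja1 listed at 0) summed to 8772 to 12864 CPM in sham and 7433 to 9463 CPM in SNT, with 1 called in each direction. The 6 counted genes of the sensory neuron list summed to 6232 to 9182 CPM in sham and 3848 to 7652 CPM in SNT, and 3 of the 6 were called lower, with a median log2 fold change of −1.25. The part of these cell types in the cell cycle estimates was not tested.

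**Figure D5:**
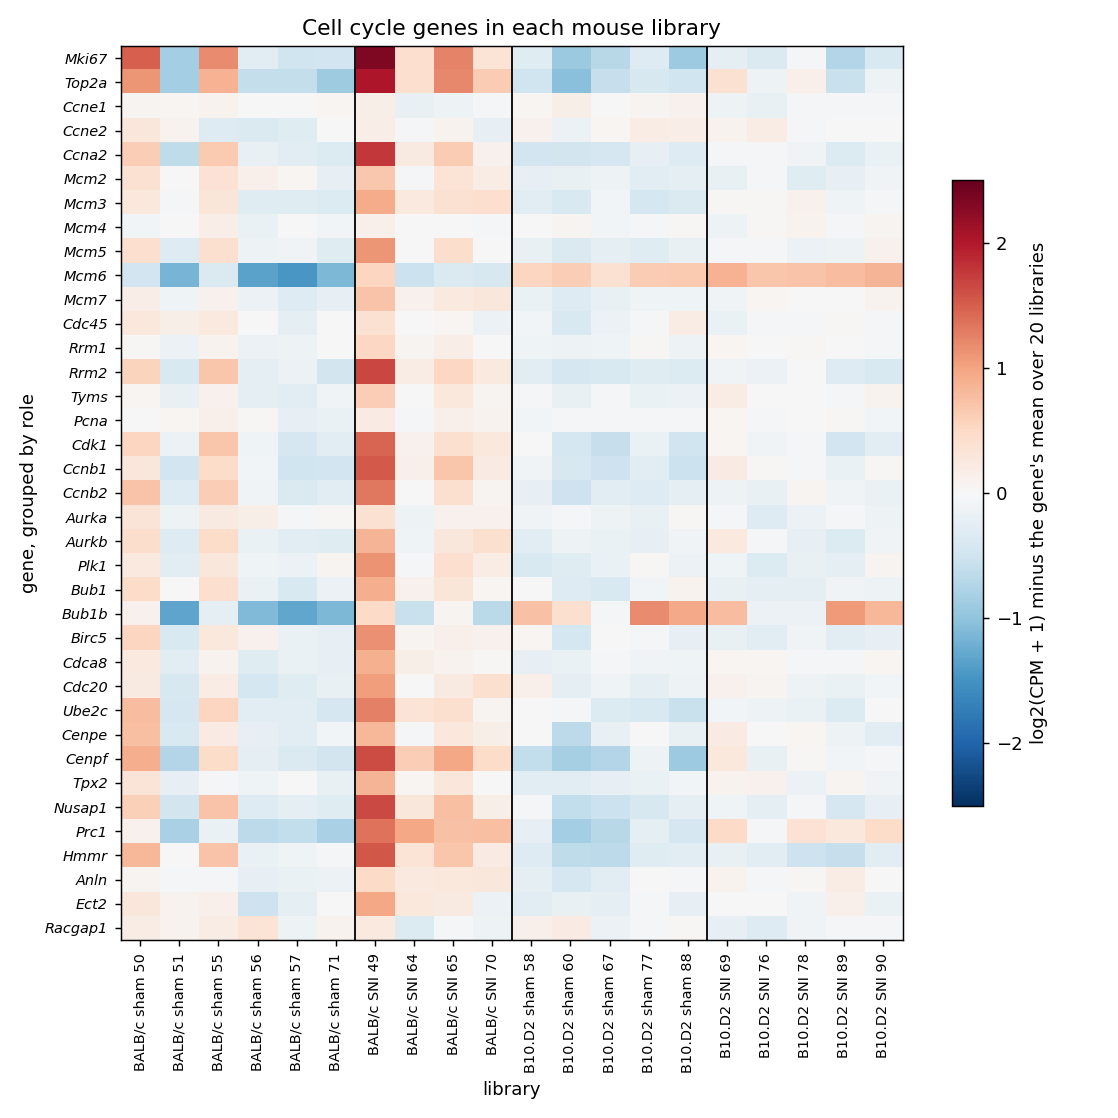
Colour gives log2(CPM + 1) of each cell cycle gene in each mouse library minus that gene's mean over the 20 libraries, with genes in rows by role and libraries in columns by group. The column of BALB/c SNI 49 is the highest for 32 of 37 genes, while Mcm6 and Bub1b are the rows that stand higher in B10.D2.

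The regulators around these genes were read from a list of 85 further genes in mouse and 52 in rat. After SNI in BALB/c mice 12 of the 85 were called, where 9.69% of all features were. Those that rose were Kif22 at 1.18, Kif2c at 0.94 and Kif20a at 0.82, motor proteins of mitosis, the atypical E2F gene E2f8 at 1.07, the G2 and mitosis transcription factor gene Foxm1 at 0.83, the CDK inhibitor genes Cdkn2a at 0.65 and Cdkn1a at 0.50, the cyclin D1 gene Ccnd1 at 0.56, the anaphase-promoting complex subunit gene Cdc23 at 0.48, the pocket protein gene Rbl1 at 0.43 and the centromeric histone gene Cenpa at 0.98. The repressor gene E2f6 fell by 0.18. Genes that promote the cycle and genes that restrain it were thus both among those that rose.

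In B10.D2 mice 7 of 85 were called, where 4.58% of all features were: Cdkn2a at 1.16, Kif22 at 0.92, the kinase gene Cdk2 at 0.46, Ccnd1 at 0.44 and Cdc23 at 0.16 rose, while E2f1 fell by 0.24 and E2f6 by 0.20. Cdc23 was the 1 gene of the 85 whose change differed between the strains, at −0.33 for the interaction (adjusted p = 0.0353, edgeR). Between the strains 11 were called in sham, where 21.6% of all features were. Ccnd1 at 0.37, Cdkn3 at 0.59 and Cdc16 at 0.12 were higher in B10.D2, and Ttk, Orc1, E2f8, Anapc13, Cdkn2b, Kif20a, Cdc23 and Rbbp4 were lower, from Ttk at −1.16 to Rbbp4 at −0.10. After SNI 28 were called, where 20.8% of all features were, of which Cdkn3 at 0.47 and Lin37 at 0.31 were higher in B10.D2. The 26 lower ones held 7 of 12 mitotic kinesins (Kif18b at −1.87, Kif14, Kif4, Kif15, Kif20a, Kif2c and Kif22), 6 kinetochore and checkpoint genes (Knl1 at −1.35, Ttk, Spc25, Cenpa, Spc24 and Incenp), E2f8 at −1.64 and E2f7 at −0.68, and the mitotic transcription factor genes Mybl2 at −0.83 and Foxm1 at −0.69. The others were Orc1, Fbxo5, Cdkn2b, Anapc13, Cdc23, Gmnn, Cdk6, Rbbp4 and Cdk4, from −1.10 to −0.16. None was called between the sexes.

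In rat the D cyclins, G1 kinases and CDK inhibitors were mostly called higher. Of the D cyclins and G1 kinases 5 of 6 rose after SNT, including Ccnd1 at 1.11, Ccnd2 at 1.06 and Ccnd3 at 0.94, where 27.4% of all features were called. The same list had 1 of 6 called in BALB/c, where 9.69% of all features were, and 2 of 6 in B10.D2, where 4.58% were. Of the CDK inhibitors 4 of 5 tested rose, among them Cdkn2b at 0.95 and Cdkn2a at 0.77. Of the mitotic kinesins 1 of 7 was called, Kif22 at 1.05, and of the anaphase-promoting complex subunits none of 6. In all, 17 of 52 further genes were called in rat, 14 higher and 3 lower, against the same 27.4%. The others that rose were Cdk2 at 0.67, Cdk4 at 0.43, Cdkn2c at 0.71, Cdkn1b at 0.62, Rbl1 at 0.79, Foxm1 at 0.78, the origin recognition gene Orc1 at 0.84 and the separase gene Espl1 at 0.98. The lower ones were Orc4 at −0.55, E2f6 at −0.40 and the chromosomal passenger gene Incenp at −0.36. The counts of called genes were not tested against each other.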

How the data were processed

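Counts of reads per gene were deposited by the authors for 20 mouse and 8 rat libraries. Per the labels and the study's methods, reads were aligned with STAR to mm10 (GRCm38) or rn6 (Rnor_6.0) and counted with HTSeq, with reads of both mouse strains on the same genome. The deposited result tables give a mean signal, log2 fold changes and p-values that the authors computed with DESeq2. Only the symbols that these tables pair with gene identifiers were used. Every column of per-sample values was mapped to a sample by its name (0 were not used), and 2 labelled mouse samples without a column, BALB/c SNI 66 and B10.D2 sham 59, were not analysed here.

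Counts were normalised by TMM, filtered by filterByExpr and tested across all features with edgeR 4.0.16 in R 4.3.3 (quasi-likelihood, Benjamini-Hochberg adjustment). The mouse fit had sex, strain, surgery and their strain by surgery interaction, and the rat fit had surgery alone. CPM values are scaled by TMM. Mice are separate animals, and rat libraries are separate pools. The code was tested on simulated data. Alternatives were DESeq2 1.42.0, median-of-ratios size factors, other filters on low counts, no sex covariate, each strain alone, a replicate block in rat, pseudocounts of 0.5 and 0.1 for the mean over genes, and leaving out each library. A rat fit without both sham 4 and SNT 1 was also run. After seeing the data, mouse fits without 3 libraries and with a bone marrow covariate were added.

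The cell cycle genes and all gene lists were chosen with earlier results of these data known. Genes called in any of the 7 comparisons are named, up to 8 per comparison by library, with at most 4 uncalled genes per comparison. Genes outside that rule, such as those of fits without a library or without overlap between groups, were chosen after their values were seen.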

Additional observations from a re-analysis of the deposited data

Results flagged for a closer look

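Among 92 groups of 4 to 6 libraries examined for the named cell cycle genes, 4 held a library whose gap to its nearest neighbour was large for the range of its group by Dixon's 95% limit. Chance flags about 1 in 20 groups. Birc5 at 5.87 CPM and Anln at 19.0 CPM in BALB/c SNI library 49 stood above the other BALB/c SNI libraries, and this library is also the highest in bone marrow genes. Top2a at 3.35 CPM in B10.D2 sham library 60 stood below the other libraries of its group. Rrm1 at 86.2 CPM in rat SNT library 3 stood above the other SNT libraries.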

How the results depend on the processing

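Prc1 was called in both mouse strains in each of the 20 fits that left out 1 mouse library. The 32 gene results called in the report had 861 values under alternatives, of which 754 passed the threshold in the same direction, 107 did not pass and 0 had the opposite direction. These values include fits that left out a library outside the groups compared, so the pooled number says little about any single gene. Of the genes called after SNI in BALB/c mice, only Prc1 and Anln stayed called in all 20 of these fits. DESeq2 called 2 genes after SNI in B10.D2 and 8 in rat, the latter against 26.1% of the features with an adjusted p. With each strain fitted alone 2 genes were called in BALB/c and 2 in B10.D2. Without the 3 libraries highest in myeloid precursor genes, 21 were called in BALB/c, 2 in B10.D2 (against 4.76% of all features) and 1 for the interaction. With the bone marrow covariate the counts were 4 in BALB/c, 5 in B10.D2 and, between strains after SNI, 2. Without both rat sham 4 and SNT 1, 20 were called. The cause was not tested.

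Leaving out 1 library gave 2 to 16 called genes in BALB/c: 2 without SNI 49, 5 without sham 51, 56, 57 or 71, 15 without sham 55 or SNI 70, and 16 without sham 50. In B10.D2 it gave 1 to 2 (2 without sham 77), and between strains in sham 3 to 6. Between strains after SNI it gave 3 to 24: 3 without BALB/c SNI 49, 10 without B10.D2 SNI 89, 11 without B10.D2 SNI 90 and 24 without BALB/c SNI 70. In rat it gave 0 to 17: 17 without sham 4, 6 without SNT 1 and 0 without sham 2, sham 3, SNT 2, SNT 3 or SNT 4. The interaction and the sexes stayed at 0. Outside the fits given with their share of all features above, that share is not given for the fits that left out 1 library. It is also not given for DESeq2 in B10.D2, each strain alone and the rat replicate block. The counts of all these fits show only how the calls moved and are not results about these genes. With a replicate block on the number shared by rat titles, 0 genes were called. The labels do not say what that number stands for. Same-numbered sham and SNT libraries deviated from their group means with correlations of 0.050, −0.29, −0.11 and −0.094. So few libraries cannot show whether the number pairs them, and the main rat fit left it out. The mouse labels share no replicate numbers. Depth limits the low genes, with 10 of 37 under 2 CPM in mouse sham, and the 11 genes listed at 0 in rat could not be tested.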
